A study of Mus musculus with 17 samples.

Results

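The immediate early response genes described here were 10 genes, Fos, Fosb, Jun, Junb, Egr1, Atf3, Ier2, Dusp1, Nr4a1 and Zfp36, taken by name from expression tables of mouse lung tumor cells, TRMs and MDMs. All 10 were found in each of the 3 tables, out of 17555 gene names over the tables. Each of them also passed the filter on low values, 1 RPKM in at least 2 of the 4 libraries of a population. In RPKM, reads are divided by gene length and by library total, so levels of different genes are comparable per length.

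Immediate early genes are transcribed within minutes of a stimulus, because the factors that switch them on are already present in the resting cell. Growth factor, cytokine and stress signals reach them through MAP kinases, which activate serum response factor with its ternary complex partners, CREB and pre-existing AP-1. The first wave encodes transcription factors of the AP-1, EGR and NR4A families, together with feedback proteins that end the signal, and most of its transcripts are short-lived. In lung epithelium and in macrophages the same genes respond to injury, growth factors and inflammatory stimuli. They are also known to be switched on while tissue is digested and cells are sorted, so the values are those of isolated cells.

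KL mice carried Lkb1fl/fl together with an oncogenic allele that Cre switches on, and KLG4 mice carried Gpx4m/m in addition. Both genotypes had received intranasal Ad-Cre, an adenovirus that delivers Cre recombinase, and then tamoxifen, and lungs were taken 10 weeks after Ad-Cre. In Gpx4m/m, Cre switches on another recombinase, which acts after tamoxifen and removes part of Gpx4, so the removal is designed for cells that took up the virus, and TRMs and MDMs of KLG4 mice carry the allele without a designed removal. Mice were 8 to 10 weeks old at Ad-Cre. Cells were sorted from digested lungs, tumor cells as EpCAM+ cells without CD45, the pan-leukocyte marker, or CD31, an endothelial one. Tumor cells came from 2 mice per group, while the gates for TRMs and MDMs and the number of animals behind their libraries were not given in the sources used here. There were 2 libraries for each of the 6 groups, 12 in all, and the other 5 libraries of the series were not analysed here.

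Depth ranged from 9.14 to 36.6 M (megareads) of counted reads per library, and the members had between 174 reads (Ier2 in TRMs) and 67755 reads in a library, in which the mates of a pair were mostly counted apart. In tumor cells, Gpx4 was at 95.0 and 76.8 RPKM in KL and at 56.4 and 61.9 RPKM in KLG4 (log2 fold change -0.53, adjusted p 0.036 in limma). In TRMs it was at 89.8 and 88.2 RPKM in KL and 53.8 and 57.0 RPKM in KLG4, and in MDMs at 44.9 and 71.3 RPKM in KL and 93.6 and 97.7 RPKM in KLG4. The libraries did not overlap there either, lower in KLG4 TRMs and higher in KLG4 MDMs, but neither difference passed the test (adjusted p 0.070 and 0.679 in limma). Marker levels differed between the genotypes in tumor cells. All 10 genes of a leukocyte marker list were higher in both KLG4 tumor cell libraries, with sums of 26.6 and 37.7 RPKM in KL and 325.6 and 331.0 RPKM in KLG4, and all 10 of an epithelial list were lower, Epcam falling from 638 and 419.8 to 214.5 and 211.3 RPKM. Mitochondrial genes took 7.38% and 8.26% of reads in KL and 14.8% and 14.7% in KLG4 tumor cells. In TRMs they took 31.5% and 22.3% in KL and 2.95% and 5.78% in KLG4, and Xist was at 0.257 and 0.501 RPKM in KL and at 18.3 and 20.2 RPKM in KLG4, so that sex and genotype cannot be told apart there. The libraries labelled MDMs carried neutrophil transcripts at high levels, with S100a9 between 9379 and 21106 RPKM, while the monocyte markers Ly6c2 and Ccr2 were at most at 0.980 and 8.70 RPKM. KL replicate 2 of the MDMs stood apart, with a monocyte-derived macrophage list that summed to 2372 RPKM against 451.4 to 582.8 RPKM in the other 3 libraries. It also had the lowest Xist of the MDMs (0.839 RPKM against 19.4 to 21.8), the highest epithelial sum (276.6 RPKM against 28.9 to 86.4) and the highest mitochondrial share (7.31% of reads against 0.921% to 2.75%). In bulk libraries such as these, fewer cells of a type and less RNA per cell cannot be told apart.

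Upstream sequence is shown for the 3 members that passed the test in tumor cells, Fos, Atf3 and Zfp36, and for Dusp1, which had the highest log2 difference among the members in TRMs. Each line gives the 250 bases before the RefSeq transcript start on GRCm38.p6, from 5′ to 3′ on the strand of the gene. The windows of Atf3 and Zfp36 lie within the gene spans given below, and that of Dusp1 overlaps its span in part. Capitals mark TGACG on either strand, the core of the cyclic AMP response element that CREB and ATF proteins bind, the full element TGACGTCA, and the CArG box bound by serum response factor.
Fos (chr12:85473640-85473889, plus strand): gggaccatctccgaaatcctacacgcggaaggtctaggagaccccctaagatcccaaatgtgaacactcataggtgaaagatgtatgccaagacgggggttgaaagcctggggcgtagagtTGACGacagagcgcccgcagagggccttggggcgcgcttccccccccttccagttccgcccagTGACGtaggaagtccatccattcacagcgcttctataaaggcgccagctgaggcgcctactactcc
Atf3 (chr1:191183334-191183583, minus strand): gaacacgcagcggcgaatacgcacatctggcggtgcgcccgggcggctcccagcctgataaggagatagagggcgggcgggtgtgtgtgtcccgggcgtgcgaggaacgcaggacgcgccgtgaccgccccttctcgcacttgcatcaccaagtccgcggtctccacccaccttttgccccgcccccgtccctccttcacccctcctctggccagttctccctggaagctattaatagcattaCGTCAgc
Dusp1 (chr17:26508473-26508722, minus strand): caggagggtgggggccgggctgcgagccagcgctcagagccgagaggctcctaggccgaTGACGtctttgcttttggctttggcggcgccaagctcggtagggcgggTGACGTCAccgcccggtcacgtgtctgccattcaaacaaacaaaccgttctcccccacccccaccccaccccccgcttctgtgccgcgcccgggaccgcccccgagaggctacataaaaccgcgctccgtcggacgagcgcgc
Zfp36 (chr7:28379229-28379478, minus strand): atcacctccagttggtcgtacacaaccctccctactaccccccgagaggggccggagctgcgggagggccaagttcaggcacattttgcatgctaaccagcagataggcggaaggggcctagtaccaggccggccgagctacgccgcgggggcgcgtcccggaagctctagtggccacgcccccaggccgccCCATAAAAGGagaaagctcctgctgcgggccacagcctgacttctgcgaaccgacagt

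Of the 10 members, 8 had an entry among the RefSeq upstream windows, and Egr1 and Ier2 had none. The letters TGACG, searched on both strands, were in the windows of 6 of the 8 (Atf3, Dusp1, Fos, Fosb, Junb and Nr4a1) and in 17.8% of all 32851 windows of this length. In Fos they stood at -129 to -125 and -66 to -62 relative to the transcript start, and in Atf3 at -7 to -3. The full TGACGTCA, which overlaps TGACG on both strands, was in Dusp1 alone at -143 to -136, and in 1.55% of all windows. A CArG box was in Zfp36 alone at -58 to -49, and in 1.47% of all windows. The AP-1 letters TGANTCA were in 0 of the 8 and in 6.75% of all windows. Only these 250 bases were searched, so elements further upstream are not covered for any gene. These matches are a description of the letters in the windows and were not tested against the expression values.

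On the GRCm38 genome the members lay on 8 chromosomes and were all protein-coding. The AP-1 genes were Fos (chromosome 12, 85473890 to 85477273, plus strand), Fosb (chromosome 7, 19302696 to 19310051, minus strand), Jun (chromosome 4, 95049034 to 95052222, minus strand), Junb (chromosome 8, 84974484 to 84978718, minus strand) and Atf3 (chromosome 1, 191170296 to 191218039, minus strand). The other regulators were Egr1 (chromosome 18, 34859823 to 34864984, plus strand), Nr4a1 (chromosome 15, 101266846 to 101274792, plus strand) and Ier2 (chromosome 8, 84661331 to 84662852, minus strand). The feedback genes were Dusp1 (chromosome 17, 26505590 to 26508519, minus strand) and Zfp36 (chromosome 7, 28376784 to 28380253, minus strand). Reads were counted over all exons without strand. Exons of Jun share 232 bases with the antisense gene Junos, those of Junb 173 bases with Prdx2 and those of Zfp36 125 bases with the antisense gene Gm44710, so reads in these stretches cannot be assigned to one strand.

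The members were among the most highly expressed genes of tumor cells. Between 8 and 10 of them were in the top 5% of genes by RPKM in each tumor cell library, against 5 or 6 in each MDM library and 4 or 5 in each TRM library. Their summed level was 2803 and 2721 RPKM in KL and 2373 and 2407 RPKM in KLG4 tumor cells, 1538, 1609, 1498 and 1430 RPKM in MDMs, and 607.9, 638.9, 1022 and 783.1 RPKM in TRMs, each in the order KL replicates 1 and 2 and KLG4 replicates 1 and 2. The tables were normalized separately, so these levels are set side by side as a description, without a test.

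The leading member differed between populations. In all 4 tumor cell libraries it was Atf3, a stress-induced partner of the Jun proteins, with Fos and Jun in the next places in either order. In all 4 MDM libraries it was Junb, an AP-1 subunit that is prominent in myeloid cells, at 419.0 to 465.1 RPKM. In TRMs it was Junb, Fos, Fos and Jun in turn, none above 201.1 RPKM. The lowest member was Zfp36 in KL tumor cells, Ier2 in KLG4 tumor cells and in all MDM libraries, and Egr1 in all TRM libraries.

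**Figure D1:**
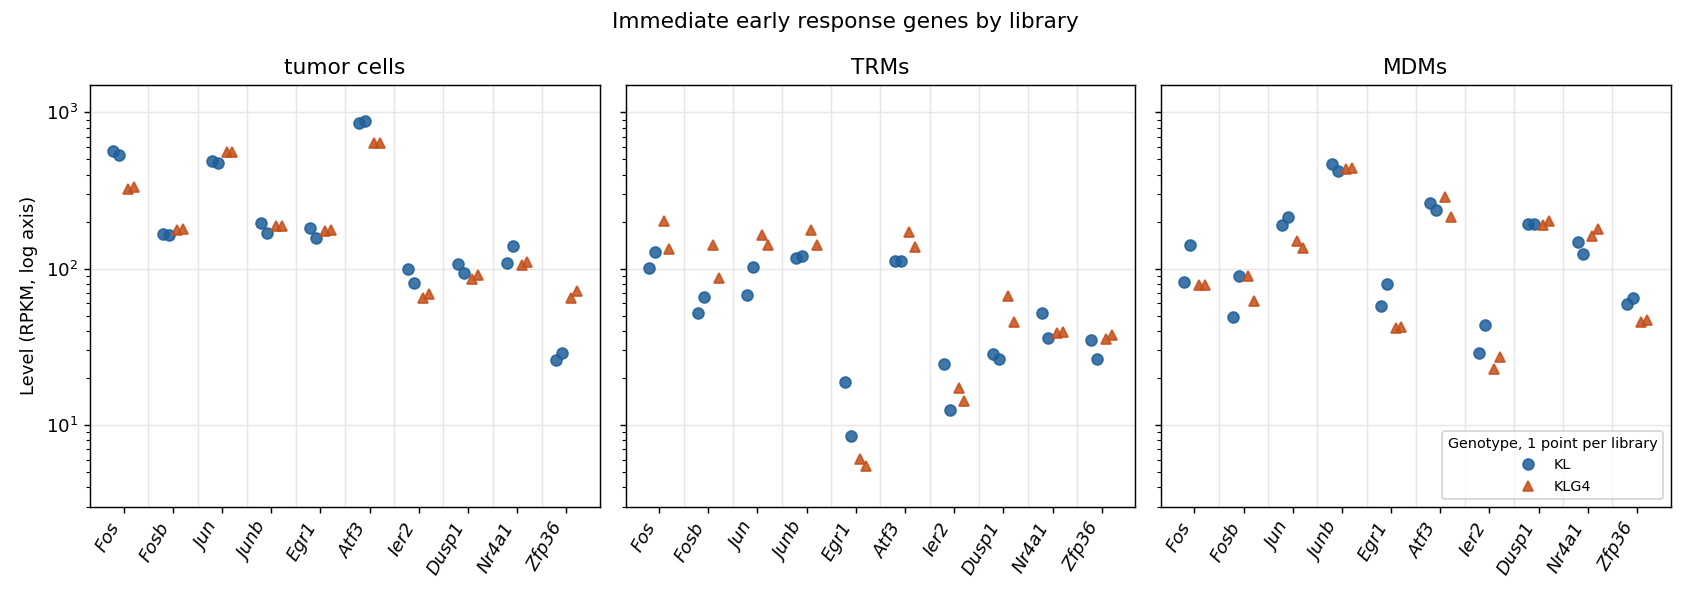
Level of each member in RPKM on a log axis in tumor cells, TRMs and MDMs, with 1 point per library, circles for KL and triangles for KLG4. Atf3 is the highest member in tumor cells and Junb in MDMs, 3 of the 4 values of Egr1 in TRMs are the lowest of all, and Zfp36 shows the widest gap between the genotypes in tumor cells.

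Egr1, a zinc finger factor induced by growth factors, had the widest range of the members, from 5.50 RPKM in a KLG4 TRM library to 182.2 RPKM in a KL tumor cell library, a 33.1-fold range. Its groups fell in the order tumor cells, MDMs and TRMs. The KL and KLG4 tumor cell libraries overlapped, and the remaining neighbours in the order did not. Zfp36 had the narrowest range, 2.75-fold. Fos, Fosb, Jun, Atf3 and Ier2 were highest in tumor cells of both genotypes. Junb and Dusp1 were highest in MDMs of both genotypes, as was Nr4a1 by group means, although its values in KL MDMs (147.4 and 124.2 RPKM) and KL tumor cells (108.8 and 140.2 RPKM) overlapped. For Ier2 the KLG4 MDM, KL TRM and KLG4 TRM groups overlapped with their neighbours, and for Fosb the groups from KLG4 TRMs down to KL TRMs did. Values also overlapped between KL TRMs and KL MDMs for Fos, between KLG4 TRMs and KLG4 MDMs for Jun, and between KLG4 tumor cells and KL MDMs for Zfp36.

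In tumor cells, 1 of the 10 members was higher in KLG4 than in KL at an adjusted p under 0.05 (Zfp36) and 2 were lower (Fos and Atf3). Over all 13770 genes tested there, 20.6% were called higher and 19.6% lower, so the members were called about as often as other genes. At an unadjusted p under 0.05, 1 member was higher and 3 were lower (Ier2 in addition), against 23.6% and 26.7% of all genes. Their median log2 fold change was -0.07, against -0.09 over all genes. The KLG4 pair lay wholly above the KL pair for 3 members (Fosb, Jun and Zfp36) and wholly below it for 4 (Fos, Atf3, Ier2 and Dusp1), where this held for 32.5% and 42.2% of all genes.

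Fos, the AP-1 subunit that must pair with a Jun protein to bind DNA, was at 563.1 and 535.2 RPKM in KL tumor cells and at 323.1 and 331.1 RPKM in KLG4. Both KLG4 libraries were below both KL libraries, and the gap was wider than that between replicates. It fell by 0.75 on the log2 scale (standard error 0.11, adjusted p 0.0050 in limma), which is 1.68-fold. Its close relative Fosb was at 166.2 and 163.8 RPKM in KL and at 177.3 and 178.3 RPKM in KLG4, a log2 difference of 0.11 (95% interval -0.15 to 0.37) that did not pass the test (adjusted p 0.449 in limma).

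Jun, the subunit that can pair with itself or with Fos, was at 492.5 and 471.8 RPKM in KL and at 555.6 and 557.3 RPKM in KLG4. The KLG4 libraries were the higher ones, with a log2 difference of 0.21 (adjusted p 0.193 in limma). Junb, which often opposes Jun in proliferation, was at 197.2 and 168.2 RPKM in KL and 188.5 and 186.5 RPKM in KLG4, so the KLG4 values lay inside the KL range. Atf3 was at 859.0 and 882.1 RPKM in KL and at 632.9 and 635.9 RPKM in KLG4. Both KLG4 libraries were lower, and Atf3 fell by 0.46 on the log2 scale (standard error 0.11, adjusted p 0.027 in limma), which is 1.37-fold.

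Among the other regulators, Egr1 was at 182.2 and 156.8 RPKM in KL tumor cells and at 174.6 and 176.3 RPKM in KLG4, and Nr4a1, an orphan nuclear receptor, at 108.8 and 140.2 RPKM in KL and 105.8 and 110.0 RPKM in KLG4. Genotypes overlapped for both. Ier2, a small nuclear regulator, was at 99.8 and 80.5 RPKM in KL and at 64.6 and 68.9 RPKM in KLG4, lower in both KLG4 libraries but with an adjusted p of 0.065 in limma (log2 difference -0.43).

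The feedback members differed from each other. Zfp36, which encodes the protein tristetraprolin that binds AU-rich mRNAs and speeds their decay, was at 26.2 and 29.0 RPKM in KL tumor cells and at 64.6 and 72.2 RPKM in KLG4. Every KLG4 library exceeded every KL library by more than 2-fold. Zfp36 rose by 1.31 on the log2 scale (standard error 0.13, adjusted p 0.0012 in limma), which is 2.47-fold. Dusp1, the nuclear phosphatase that switches off p38 and JNK, was at 107.6 and 93.5 RPKM in KL and at 85.6 and 90.6 RPKM in KLG4, a log2 difference of -0.19 (adjusted p 0.274 in limma).

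The test in tumor cells leaned on a very close pair of KLG4 libraries. The members differed between them by at most 1.12-fold (Zfp36) and by 1.02-fold at the median, and all tested genes by 1.09-fold at the median, against 1.20-fold between the KL libraries. Without KLG4 replicate 1 or without KLG4 replicate 2, 0 members were called lower, where 2.89% and 2.72% of all genes were, and Zfp36 remained called higher in both cases, where 11.6% and 11.3% were. Without KL replicate 1, 4 members were called higher (Jun, Junb, Egr1 and Zfp36; 22.6% of all genes) and 4 lower (Fos, Atf3, Ier2 and Nr4a1; 26.1%). With KL replicate 2 left out instead, 2 were called higher (Jun and Zfp36; 28.2%) and 4 lower (Fos, Atf3, Ier2 and Dusp1; 25.3%), so calls over the whole table rose in both settings. Zfp36 was called higher in all 14 alternative settings, with log2 fold changes from 1.22 to 1.42, Fos was called lower in 12 of 14 (-0.78 to -0.60) and Atf3 in 6 of 14 (-0.48 to -0.30). The rise of leukocyte markers went together with the genotype in these libraries, as did that of 9 of 10 neutrophil genes (sums of 600.6 and 630.2 RPKM in KL and 2708 and 2783 RPKM in KLG4) and of the 9 monocyte-derived macrophage genes in the table (38.7 and 43.4 RPKM in KL and 518.3 and 520.2 RPKM in KLG4). All 10 T cell genes were higher in both KLG4 libraries, as were 7 of 9 plasma cell genes (225.6 and 238.7 RPKM in KL and 2130 and 2163 RPKM in KLG4). Markers of cells that are not leukocytes moved as well, with all 10 fibroblast genes (227.5 and 223.8 RPKM in KL and 1614 and 1514 RPKM in KLG4) and 9 of 10 club cell genes higher. Of the genes of alveolar type 2 and type 1 cells, 9 of 10 and 8 of 10 were lower. The sort on EpCAM without CD45 and CD31 was designed to leave leukocytes and endothelial cells out. The part of other cells and of the mitochondrial share in the values of the members was not tested.

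**Figure D2:**
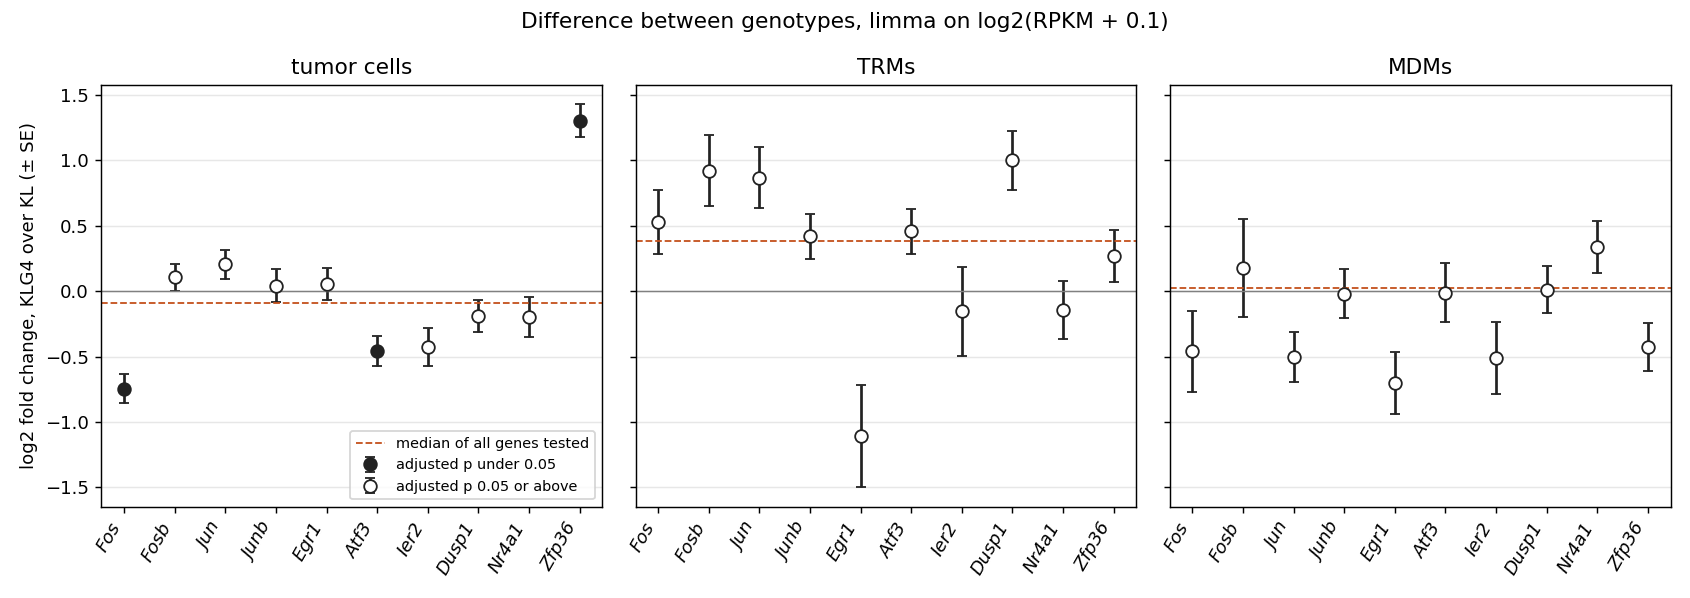
log2 fold change of KLG4 over KL for each member in tumor cells, TRMs and MDMs, with standard errors from limma, filled points for an adjusted p under 0.05 and a dashed line at the median of all genes tested. Zfp36 (1.31), Fos (-0.75) and Atf3 (-0.46) are the filled points in tumor cells, the dashed line in TRMs is at 0.38, and no member is filled in TRMs or MDMs.

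In TRMs, 0 members passed an adjusted p under 0.05 in limma, where 1.36% of 10990 genes were called higher and 0.437% lower. At an unadjusted p under 0.05, 4 members were higher (Fosb, Jun, Atf3 and Dusp1; 25.5% of all genes) and 1 was lower (Egr1; 2.78% of all genes). Of these, Dusp1 was at least 2-fold higher and Egr1 at least 2-fold lower, against 12% and 2.04% of all genes. With limma-voom on the recovered reads, Egr1 alone was called, as lower (3.33% of all genes). The KLG4 pair lay wholly above the KL pair for 7 members and wholly below it for Egr1, where this held for 53.7% and 8.95% of all genes. The median over the members was 0.44, against 0.38 over all genes, so the members lay close to the table as a whole. Under scaling by TMM factors, both medians were close to 0 (0.048 for the members).

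Dusp1 had the highest log2 difference. It was at 28.6 and 26.3 RPKM in KL TRMs and at 66.5 and 45.6 RPKM in KLG4, with both KLG4 libraries well above the KL pair. The log2 difference was 1.00 (standard error 0.23, adjusted p 0.071 in limma), or 0.62 relative to the median of all genes. Fosb was at 52.0 and 65.6 RPKM in KL and at 141.6 and 86.8 RPKM in KLG4, and Jun at 68.2 and 103.0 RPKM in KL and 165.5 and 141.6 RPKM in KLG4. For both, KLG4 replicate 1 was the highest library and KL replicate 1 the lowest. Their log2 differences were 0.92 (adjusted p 0.105) and 0.87 (adjusted p 0.093), in limma, or 0.54 and 0.49 relative to the median of all genes.

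The other AP-1 members were close to the median of the table. Fos was at 100.3 and 128.1 RPKM in KL TRMs and 201.1 and 133.1 RPKM in KLG4. Junb was at 116.7 and 119.9 RPKM in KL and 177.1 and 141.5 RPKM in KLG4. Atf3 was at 111.9 and 112.8 RPKM in KL and 172.8 and 137.8 RPKM in KLG4. All 3 were higher in KLG4 replicate 1 than in replicate 2, and their log2 differences of 0.53, 0.42 and 0.46 exceeded the median of all genes by 0.15, 0.040 and 0.077. Zfp36 was at 34.8 and 26.5 RPKM in KL and 35.7 and 37.4 RPKM in KLG4, a log2 difference of 0.27 that turned to between -0.13 and -0.051 under quantile scaling, TMM scaling, rescaling to reads outside mitochondrial genes and limma-voom.

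Egr1 was the member with the lowest log2 difference. It was at 18.8 and 8.44 RPKM in KL TRMs and at 6.08 and 5.50 RPKM in KLG4, of which 3 were the lowest values of any member in any library. The KL replicates differed by 2.22-fold, more than for any other member in any group, and both KLG4 values lay below them. The log2 difference was -1.11 (standard error 0.39, adjusted p 0.142 in limma) and -1.49 relative to the median of all genes. Leaving out KL replicate 1 gave -0.54, and leaving out KL replicate 2 gave -1.69. Nr4a1, at 52.1 and 35.8 RPKM in KL and 38.8 and 39.5 RPKM in KLG4, and Ier2, at 24.4 and 12.5 RPKM in KL and 17.3 and 14.3 RPKM in KLG4, had overlapping genotypes. Single libraries set some of the calls in TRMs. Without KL replicate 2, Jun was called higher and Egr1 lower, as were 20.1% and 1.59% of all genes, and without KLG4 replicate 2, Fosb was called higher, as were 1.26% of all genes. The mitochondrial share and Xist moved with the genotype in TRMs, and their part in these values was not tested. Of marker genes, 7 of 9 for monocyte-derived macrophages and 6 of 10 for alveolar macrophages were higher in both KLG4 libraries, beside 53.7% of all genes, and 2 of the alveolar list were lower. The median log2 fold change of the alveolar list was 0.33, below the 0.38 of all genes. Lower in both KLG4 libraries were 6 of 9 epithelial genes, 7 of 8 endothelial genes, 5 of 10 alveolar type 2 genes and 4 of 8 neutrophil genes, beside 8.95% of all genes. These marker counts include genes that did not pass the filter, while the share is over tested genes. Tested were 6 epithelial, 3 endothelial and 9 alveolar type 2 genes. The part of these cells in the members' values was not tested.

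In MDMs, 0 of 10475 genes passed an adjusted p under 0.05 in limma, members included, so 0% of all genes were called in either direction. Limma-voom also called 0. At an unadjusted p under 0.05, 0 members were higher (2.82% of all genes) and 2 were lower, Jun and Egr1 (3.92% of all genes). The KLG4 pair lay wholly below the KL pair for 5 members (Fos, Jun, Egr1, Ier2 and Zfp36) and wholly above it for Nr4a1, where this held for 19.1% and 25.4% of all genes. The median over the members was -0.22, against 0.02 over all genes.

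Egr1 was at 57.9 and 80.4 RPKM in KL MDMs and at 41.6 and 42.2 RPKM in KLG4. Jun was at 190.7 and 213.8 RPKM in KL and at 150.0 and 135.6 RPKM in KLG4. KL replicate 2 was the highest library for both genes, and the log2 differences were -0.70 and -0.50 (adjusted p 0.679 for each in limma). Fos was at 82.3 and 141.4 RPKM in KL and at 78.1 and 78.8 RPKM in KLG4, and Ier2 at 29.0 and 43.6 RPKM in KL and at 22.9 and 27.0 RPKM in KLG4. In both of these KL replicate 2 was far above KL replicate 1, which lay close to the KLG4 libraries. Zfp36 was at 59.3 and 65.1 RPKM in KL and at 45.9 and 46.7 RPKM in KLG4, a log2 difference of -0.42, with KL replicates closer to each other than for those 4 genes.

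Nr4a1 was the one member with both KLG4 MDM libraries above the KL pair, at 147.4 and 124.2 RPKM in KL and at 162.4 and 180.0 RPKM in KLG4 (log2 difference 0.34, 95% interval -0.19 to 0.86). Junb, Atf3, Dusp1 and Fosb overlapped between genotypes. Dusp1 was the steadiest of these, at 193.4 and 193.7 RPKM in KL and 189.0 and 201.3 RPKM in KLG4, with a 95% interval of -0.46 to 0.48 for the log2 difference. Without KL replicate 2, the library that stood apart in its markers, Xist and mitochondrial share, the median over the members was -0.09 and 0 members were called. Without KL replicate 1 it was -0.38 and 4 members were called lower (Fos, Jun, Egr1 and Ier2), in a setting that called 14.2% of all genes lower. All 10 neutrophil markers were present in these libraries, summing to 23780 and 10763 RPKM in KL and 20176 and 18297 RPKM in KLG4, lowest in KL replicate 2. Lower in both KLG4 libraries were 7 of 9 epithelial genes (median log2 fold change -2.62), 9 of 10 endothelial genes (-1.80) and 7 of 10 alveolar type 2 genes (-2.18), beside 19.1% of all genes. These marker counts include genes that did not pass the filter, while the share and the medians are over tested genes. Tested were 8 epithelial, 7 endothelial and 8 alveolar type 2 genes. The part of these cells in the values of the members was not tested.

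Ratios between members of the same library do not depend on a scaling factor applied to the whole library. Of the 45 ratios that 10 members form, the KLG4 and KL libraries did not overlap for 37 in tumor cells, 31 in TRMs and 27 in MDMs, and for 6 the KLG4 libraries lay on the same side in all 3 populations. Over the ratios of all pairs of tested genes above 0 in every library, 75.7%, 53.8% and 43.4% did not overlap in tumor cells, TRMs and MDMs, beside 82.2%, 68.9% and 60% for the members, and 10.4% lay on the same side in all 3, beside 13.3% for the members. The ratios described here were chosen after their values were seen and carry no test. The Fos to Fosb ratio was one of the 6. It was 3.39 and 3.27 in KL and 1.82 and 1.86 in KLG4 tumor cells, 1.93 and 1.95 in KL and 1.42 and 1.53 in KLG4 TRMs, and 1.68 and 1.58 in KL and 0.871 and 1.26 in KLG4 MDMs. It was therefore lower in each KLG4 library than in either KL library of its population. The other 5 were Fos to Dusp1, Egr1 to Zfp36 and Ier2 to Dusp1, lower in KLG4, and Fosb to Ier2 and Junb to Ier2, higher in KLG4.

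Other ratios differed in their pattern between populations. Fos exceeded Jun in KL tumor cells (ratios of 1.14 and 1.13) and was below it in KLG4 tumor cells (0.581 and 0.594). In TRMs this ratio was also lower in KLG4, at 1.47 and 1.24 in KL and 1.22 and 0.940 in KLG4, and in MDMs the genotypes overlapped. The Zfp36 to Fos ratio was 0.0466 and 0.0542 in KL and 0.200 and 0.218 in KLG4 tumor cells, while the genotypes overlapped in TRMs and MDMs. The Egr1 to Dusp1 ratio was 0.658 and 0.321 in KL and 0.0914 and 0.121 in KLG4 TRMs. In MDMs it was also lower in both KLG4 libraries, and in tumor cells it was higher in both.

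**Figure D3:**
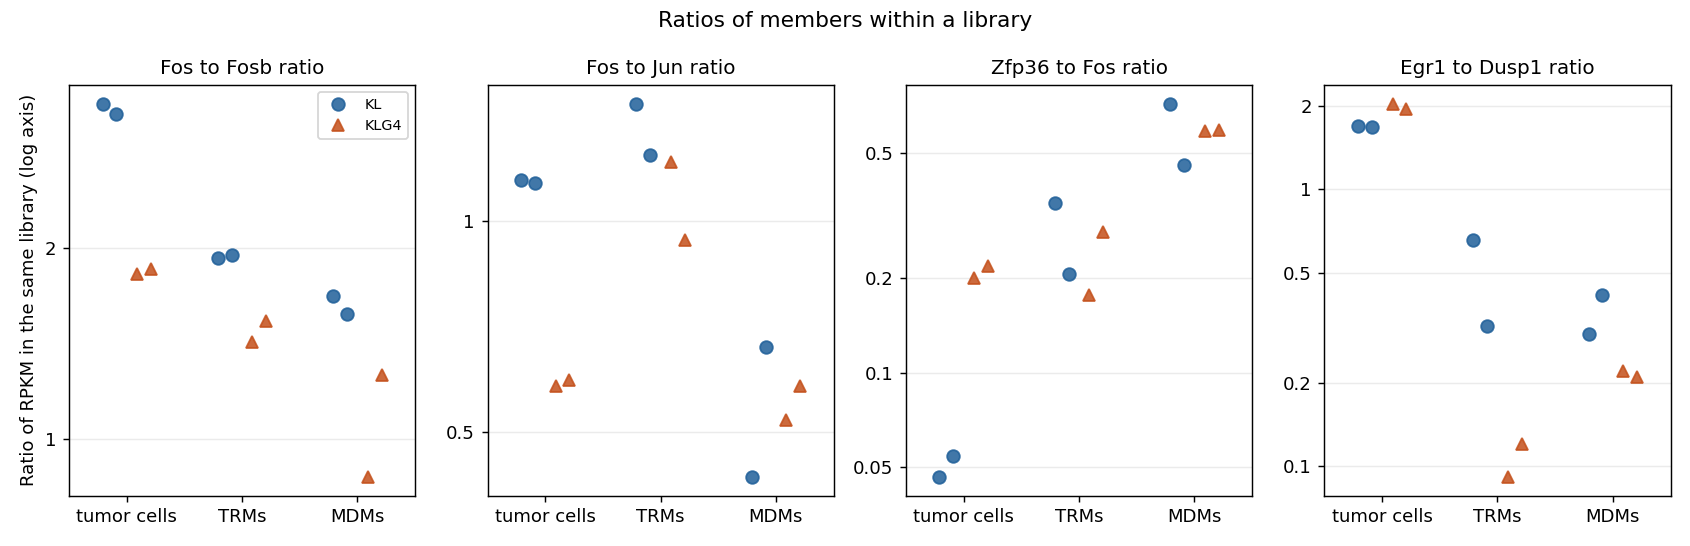
Ratio of the RPKM of pairs of members within the same library, on log axes, for tumor cells, TRMs and MDMs, with 1 point per library, circles for KL and triangles for KLG4. The Fos to Fosb ratio is lower in the KLG4 libraries of every population, and the Fos to Jun and Zfp36 to Fos ratios are furthest apart in tumor cells (1.14 and 1.13 against 0.581 and 0.594 for Fos to Jun).

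The members did not vary as a single unit across the libraries. Log2 values were centred within each population, and Pearson's r was computed over the 12 libraries for each of the 45 pairs. Of these, 27 were positive and 18 negative, with a median of 0.11. Junb and Dusp1 were most alike (0.91), Egr1 and Ier2 reached 0.71, and Jun and Nr4a1 were least alike (-0.73). Against the mean of the other members, Dusp1 had the highest r (0.64) and Egr1 (-0.32) and Nr4a1 (-0.45) the lowest. This order rested on single populations. Without TRMs, Egr1 was the highest of the members (0.89) and Dusp1 fell to 0.033, and without tumor cells Zfp36 went from -0.049 to 0.70. Libraries of a population shared a genotype contrast, depth and table scaling, so these values are descriptions.

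Of 4121 other genes with a mean of at least 5 RPKM in each population, Bag3, a co-chaperone of the heat shock protein Hsp70, had the profile most like the mean of the members (r 0.91 over the 12 libraries, and 0.93 with any 1 of the 3 populations left out). It was followed by Ncaph2 (0.87), Nufip1 (0.86), Cyb5a (0.86), Mir7036 (0.84), Snora81 (0.84), 9530068E07Rik (0.83) and Abhd16a (0.83). Mir7036 and Snora81 are small RNA genes whose rows can count reads of the genes around them. For Snora81 and Abhd16a, r was 0.65 and 0.59 without TRMs. All of these genes were picked for the highest r over the same 12 libraries. The values with a population left out are therefore not an independent check.

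Lists of further genes of the same response are given beside the members, without a test between lists. In tumor cells, where 20.6% of all genes were called higher and 19.6% lower, other AP-1 factors had a median log2 fold change of 0.53 over 13 genes, with 7 called higher and 1 lower (Batf2). The largest was Jdp2, a Jun-binding repressor, at 30.3 and 33.7 RPKM in KL and 195.8 and 187.4 RPKM in KLG4 (log2 fold change 2.58). Batf (2.57) and Maf (2.55), factors of lymphoid and myeloid cells, came next. Maf was at 0.49 and 0.50 RPKM in KL and 3.63 and 3.16 RPKM in KLG4. It therefore passed the filter only through KLG4. Other immediate early regulators had a median of 0.56 over 25 genes, with 15 called higher and 0 lower by limma at an adjusted p under 0.05, and likewise 15 and 0 at an unadjusted p under 0.05 (23.6% and 26.7% of all genes). Egr3 (3.0), Nr4a3 (2.43) and Egr2 (2.02), relatives of Egr1 and Nr4a1, were the largest. Egr3 was at 0.366 and 0.841 RPKM in KL and 5.52 and 4.88 RPKM in KLG4. It likewise passed the filter only through KLG4. Nr4a3 was at 5.84 and 5.67 RPKM in KL and at 32.7 and 30.2 RPKM in KLG4.

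Feedback genes outside the members were divided in tumor cells, with 7 of 17 called higher and 5 lower. Those higher were led by Tnfaip3, an inhibitor of NF-kB signalling, at 27.1 and 30.4 RPKM in KL and 187.3 and 186.7 RPKM in KLG4 (2.70), with Dusp2 (2.14) and Nfkbiz (1.93) behind it. Dusp2 was at 0.791 and 0.825 RPKM in KL and 3.56 and 4.26 RPKM in KLG4. It passed the filter only through KLG4. Those lower were the MAP kinase phosphatases Dusp6, Dusp10 and Dusp16 and the Ras pathway inhibitors Spry2 and Spred1. Of 24 upstream signalling genes, 5 were called higher and 3 lower, with a median of -0.02, and Egfr (1.72), Braf (1.64) and Rps6ka5 (0.87) had the largest changes. Levels were low. Egfr was at 0.598 and 0.765 RPKM in KL and 2.31 and 2.63 RPKM in KLG4. Braf was at 0.961 and 1.37 RPKM in KL and 3.44 and 4.16 RPKM in KLG4. Rps6ka5 was at 0.502 and 0.683 RPKM in KL and 1.12 and 1.20 RPKM in KLG4. None of them reached 1 RPKM in both KL libraries, so they passed the filter through KLG4. Of 10 heat shock genes, 7 were called lower and 0 higher (by unadjusted p, 9 and 0), with a median of -0.64. Hspa1a was at 393.6 and 446.9 RPKM in KL and at 210.5 and 210.1 RPKM in KLG4. These lists stand beside the changes in leukocyte, fibroblast and epithelial markers of the same libraries, and the part of other cells in them was not tested.

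In TRMs, 3 of 12 other AP-1 factors passed the test, all higher (1.36% of all genes), among them Jund (1.64) and Batf3 (1.40). The other 4 lists had 0 calls by limma at an adjusted p under 0.05 and between 2 and 10 genes higher at an unadjusted p under 0.05 (10 of 22 regulators, 4 of 12 feedback genes, 4 of 23 upstream genes and 2 of 9 heat shock genes, beside 25.5% of all genes), with medians from 0.34 to 0.59 around the 0.38 of all genes. Genes at least 2-fold higher at an unadjusted p under 0.05, as were 12% of all genes, included Plk3 (1.35) and Nr4a2 (1.20) among the regulators, Dusp10 (1.82) among the feedback genes, the serum response factor Srf (1.51) with its cofactor Mkl1 (1.66) and Elk1 (1.14), and Hspa1a (1.37) and Hspa1b (1.33). Dusp10 was at 0.395 and 0.288 RPKM in KL and 1.71 and 1.23 RPKM in KLG4, with as few as 8 reads in a library. It passed the filter only through KLG4. Srf, Mkl1 and Elk1 each had a KL library below 1 RPKM, so they also needed KLG4 to pass. Under TMM scaling, limma called 30 genes over the whole TRM table, against 198 without it. The mitochondrial share and Xist moved with the genotype in TRMs, and their part in these lists was not tested. In MDMs, all 5 lists had 0 calls by limma, at most 1 gene of a list had an unadjusted p under 0.05, and medians ran from -0.24 (heat shock) to 0.22 (other AP-1 factors).

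**Figure D4:**
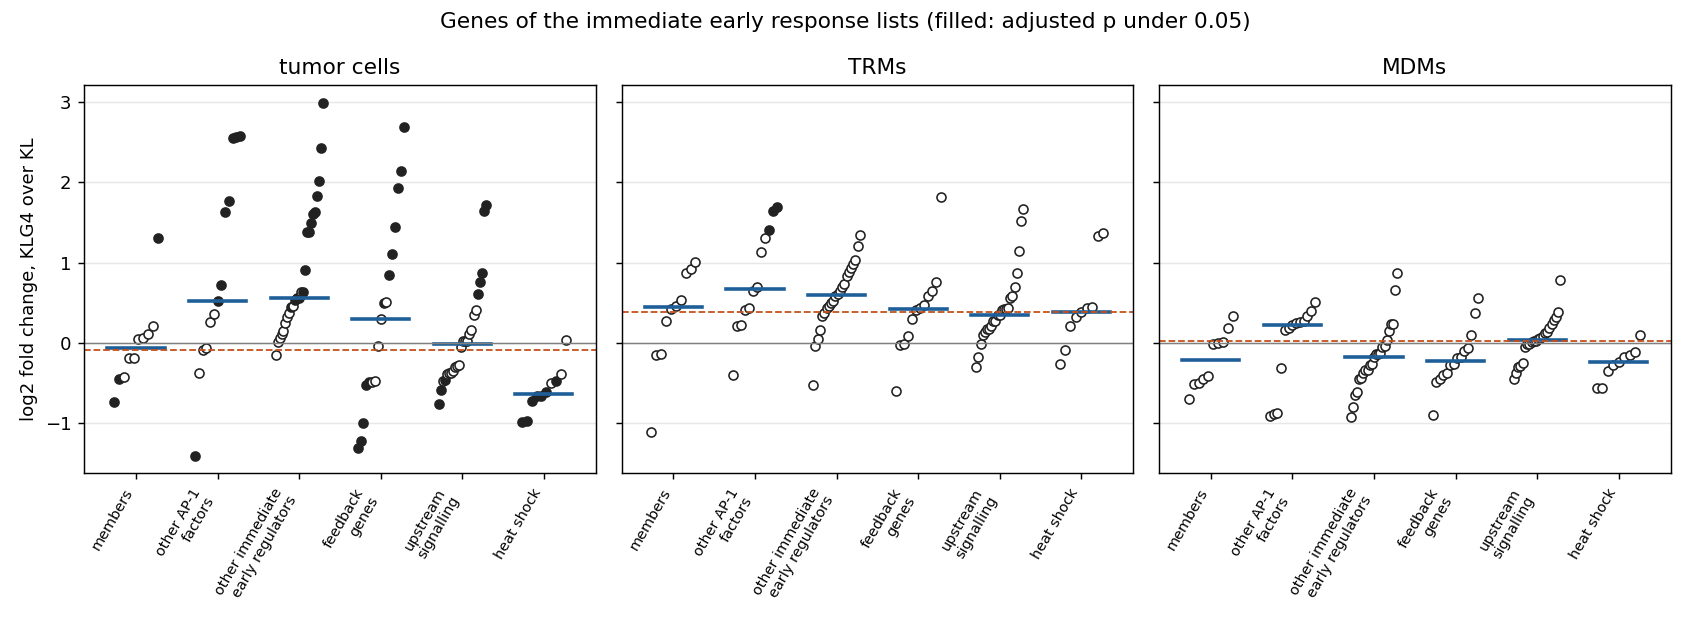
log2 fold change of KLG4 over KL for the members and for 5 lists of related genes in tumor cells, TRMs and MDMs, with 1 point per gene, filled for an adjusted p under 0.05, a bar at the median of the list and a dashed line at the median of all genes tested. In tumor cells the lists of other AP-1 factors and other immediate early regulators have medians of 0.53 and 0.56, the heat shock list of -0.64 and the members of -0.07.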

How the data were processed

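RNA of sorted tumor cells, TRMs and MDMs was sequenced as poly(A) libraries made with a non-directional kit. According to the labels and methods, reads were trimmed with Trim Galore (version 0.6.4), aligned with HISAT2 (2.0.5) to mouse GRCm38 and counted per gene with featureCounts (2.0.0) without strand. The authors deposited RPKM values, 1 table per population, with no factor between libraries applied. The authors' own comparison columns in those tables (log2 fold changes, an F score, p-values and adjusted p-values) were not used. Counted reads per library were recovered from RPKM and gene length, since at least 99.99% of values below 2000 reads were whole multiples of a step per library (within 0.05 of a whole number), and between 17.4% and 32.5% of counts below 30 were odd, as when both mates of a pair are counted. Gene names that spreadsheet software had turned into dates (21, 19 and 19 in the tables of tumor cells, TRMs and MDMs) stayed in the tests.

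Groups and replicate numbers came from the sample titles. The study gives 2 mice per group for tumor cells, and each library was taken as 1 mouse. For TRMs and MDMs nothing states that replicates came from separate animals, so their p-values measure the spread between these libraries. Each population was tested alone with limma (3.58.1, R 4.3.3) with a mean-variance trend, on log2(RPKM + 0.1) over genes that reached 1 RPKM in 2 or more of the 4 libraries. Fold changes are on that scale, which understates those of low genes. Tests were two-sided and adjusted by the Benjamini-Hochberg method over a whole table. The method was tested on simulated data. Alternatives were pseudocounts of 1 and 0.01, no filter, a mean of at least 5 RPKM, quantile and TMM scaling, rescaling to the total without mitochondrial genes and their 7 nuclear copies, no trend, the replicate number as a block, limma-voom with TMM factors on the reads recovered, and leaving out each library.

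The members, the 5 lists of related genes and the marker lists were chosen with earlier results of these data known. All members were named. From each list and population at most 3 genes were named with values, the largest changes at an adjusted p under 0.05, or, where none passed, those of 2-fold or more at an unadjusted p under 0.05. A few genes and an allele that this would name are not reported here. Genes named beyond that rule, S100a9, Ly6c2, Ccr2 and Xist among them, were chosen after their values were seen. Upstream sequences came from RefSeq on GRCm38.p6.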

Additional observations from a re-analysis of the deposited data

Results flagged for a closer look

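Of 30 comparisons of the members between 2 populations, 8 had both KLG4 libraries above both KL libraries in one population and below them in the other, which is 26.7%. Over all genes tested in both populations of a pair, 15.1% of 29120 such comparisons did. By pair this was 3 of 10 members beside 24.5% of genes for tumor cells and TRMs, 2 of 10 beside 12.8% for tumor cells and MDMs, and 3 of 10 beside 7.18% for TRMs and MDMs. With 10 members these shares rest on 2 or 3 genes each. The differences between populations given here are between log2 fold changes of KLG4 over KL, and none of them was tested.

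Fos was lower in KLG4 tumor cells and higher in KLG4 TRMs, a difference of -1.28 between the log2 fold changes, and its higher values in KLG4 TRMs against lower ones in KLG4 MDMs gave a difference of 0.99. Atf3 and Dusp1 were likewise lower in KLG4 tumor cells and higher in KLG4 TRMs, with differences of -0.91 and -1.19. The MDM side of Fos depended on single libraries. Its log2 fold change in MDMs was -0.46 with all libraries, -0.068 without KL replicate 2 and -0.85 without KL replicate 1.

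Jun was higher in both KLG4 libraries of tumor cells and of TRMs and lower in those of MDMs, with differences to MDMs of 0.71 and 1.37. Zfp36 followed the same pattern, with differences to MDMs of 1.73 for tumor cells and 0.69 for TRMs. The values in TRMs stand beside a median of 0.38 over all genes of that table. Under the 4 scalings that brought this median close to 0 (quantile, TMM, rescaling outside mitochondrial genes and limma-voom), Zfp36 in TRMs changed sign, and its difference to MDMs was 0.31 to 0.38. Between tumor cells and TRMs the difference was then -0.91 to -0.77 for Fos, -0.55 to -0.41 for Atf3 and -0.76 to -0.69 for Dusp1. Between TRMs and MDMs it was 0.61 to 0.78 for Fos and 0.99 to 1.11 for Jun, and between tumor cells and MDMs 0.79 to 0.88 for Jun and 1.78 to 1.90 for Zfp36.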

How the results depend on the processing

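Over the 14 alternatives, 374 of 420 values of single members kept their direction and their side of the threshold, 18 turned, 18 passed the threshold in addition and 10 no longer passed. In tumor cells the number of members called lower went from 2 to 1 (Fos) under quantile scaling, TMM scaling, rescaling outside mitochondrial genes, no trend, limma-voom and the replicate block, and the number called higher from 1 to 2 (Jun and Zfp36) under quantile scaling. Their median of -0.07 became 0.051, -0.0059, 0.040 and 0.0075 under quantile scaling, TMM scaling, rescaling and limma-voom. In TRMs 1 member was called higher with the mean filter (Dusp1) and 1 lower with limma-voom (Egr1), and the median of 0.44 became 0.23, 0.048, 0.049 and 0.059 under the same 4 scalings. Under these scalings the median of all genes in TRMs was between -0.0098 and 0.00045, against 0.38, and quantile scaling moved that in tumor cells from -0.09 to -0.25. Where no value shows it, the cause of a change was not tested. Single values that turned were Zfp36 in TRMs (-0.051, -0.12, -0.12 and -0.13 under those scalings) and, in MDMs, Junb (0.020) and Atf3 (0.038) under quantile scaling and Dusp1 (-0.047 rescaled, -0.0053 with limma-voom).

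Leaving out 1 library at a time assumes that a lone library varies like the other genotype. In tumor cells it gave 1 to 4 members higher, 0 to 4 lower and a median of -0.088 to 0.016. In TRMs it gave 0 to 1 higher, 0 to 1 lower and a median of 0.28 to 0.60, and in MDMs 0 to 0 higher, 0 to 4 lower and a median of -0.38 to -0.090. Members that turned ranged from -0.073 to 0.16 (Junb) and -0.054 to 0.16 (Egr1) in tumor cells, from -0.63 to 0.33 (Ier2) and -0.41 to 0.13 (Nr4a1) in TRMs, and from -0.26 to 0.61 (Fosb), -0.094 to 0.056 (Junb), -0.22 to 0.19 (Atf3) and -0.034 to 0.057 (Dusp1) in MDMs. Calls over all genes ran from 1927 to 7372 in tumor cells (5543 with all libraries), from 12 to 2382 in TRMs (198) and from 0 to 2682 in MDMs (0), the 12 being that without a trend. Replicate numbers did not pair the libraries, since deviations of KL and KLG4 libraries of the same number correlated at 0.019 in tumor cells, -0.060 in TRMs and 0.054 in MDMs. The replicate block left 1 member lower in tumor cells and changed no other member's call. The median r among members was 0.28 without tumor cells, 0.096 without TRMs and 0.18 without MDMs, against 0.11. With 2 libraries per group, small differences could not be told from the spread.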
